A study of Mus musculus with 12 samples.

Results

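Mitochondrial ribosomal proteins are encoded in the nucleus, made in the cytosol and imported into mitochondria. There they assemble with the ribosomal RNAs of the mitochondrial genome into a ribosome of a small subunit, which holds the messenger RNA and decodes it, and a large subunit, which joins the amino acids. This ribosome translates only the few proteins encoded by mitochondrial DNA, all of them subunits of the respiratory chain or of ATP synthase, on which the liver relies for fatty acid oxidation and gluconeogenesis. The genes described here are the rows of the hepatic count table whose symbol is Mrpl (large subunit) or Mrps (small subunit) followed by a number and at most 1 letter. This rule uses names and no measured value, and it took 78 of 21683 genes in the table.

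Of the 78 genes, 51 encode proteins of the large subunit, among them Mrps18a and Mrps30 despite their names. Another 26 encode proteins of the small subunit. Mrps36 belongs to neither subunit, since its product was later recognised as a component of the 2-oxoglutarate dehydrogenase complex. A bacterial counterpart at the same place in the ribosome was listed for the proteins of 44 of the genes and not for the other 34. The 34 include Mrps18a and Mrps18b, although Mrps18c, of the same family, is counted among the 44.

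RNA-seq was performed on livers of F1 male mice of wild-type genotype, 6 in the paternal DCHP group and 6 in the paternal control group. Sires of the paternal DCHP group received dicyclohexyl phthalate (DCHP), a plasticizer, by oral gavage for 4 weeks from 8 weeks of age, and sires of the paternal control group received vehicle. The offspring themselves received no DCHP, and both groups ate a diet high in fat (HFD) from 3 weeks of age, for 9 weeks. The labels do not tie animals to litters or sires, so p-values measure the spread between these livers and not between litters.

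Each library held between 23794728 and 30445338 estimated counts in all. Of 12459 genes with enough counts for the edgeR quasi-likelihood test, 159 were called at a false discovery rate (FDR) under 0.1 with a fold change above 1.5, which is 1.28% of genes tested. All 78 mitochondrial ribosomal protein genes were tested. Levels are given as CPM, counts scaled to a common library size with TMM factors, and log2 fold changes are those of paternal DCHP over paternal control. All 6 hepatocyte marker genes were detected, with summed levels of 55500 to 81800 CPM in paternal DCHP livers and 59200 to 73800 CPM in paternal control livers. DCHP 5 and DCHP 3 stood apart from the other libraries in the genes described here. Counts over the 78 genes are given below with and without them. Lists of related genes are given in the fit of all livers and in some of the fits without them.

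Nuclear genes of mitochondrial proteins often carry, close to the transcription start, letters bound by NRF-1 or by ETS factors such as GABP, and some carry those of YY1. RefSeq promoters (GRCm38.p6) were found for 69 of the 78 genes, and the 250 bases before each RefSeq start were searched on both strands. For some genes that start lies inside the annotated gene, 17016 bases in for Mrpl33, and all searched bases do too. The matches in Mrpl18, Mrpl33, Mrpl36, Mrpl39 and Mrpl51 come from such stretches. The NRF-1 letters GCATGCGC, which overlap their own reverse complement, were in 8 promoters (11.6%), against 4.43% of the promoters of all genes tested and 2.32% of all promoters in the table. The ETS letters CCGGAAG were in 17 (24.6%), against 13.5% of genes tested and 7.05% of all promoters. The YY1 letters AAGATGGCG were in 2 (2.9%), against 1.11% and 0.607% of the same sets. At least 1 of these strings was in 25 promoters (36.2%), against 18.1% of genes tested and 9.54% of all promoters.

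Promoters of 3 genes described below show what such letters look like, with the matched letters in capitals. The stretches are the 120 bases that end just before the annotated gene, written on the coding strand. That of Mrpl9 ends in a palindromic NRF-1 string, in which the letters read on both strands. That of Mrps18a holds the ETS string, and that of Mrpl16, the gene with the largest higher value below, holds none of the strings. They lie at chr3:94443198-94443317, chr17:46110866-46110985 and chr19:11770271-11770390 in the order given, all on the plus strand.
Mrpl9: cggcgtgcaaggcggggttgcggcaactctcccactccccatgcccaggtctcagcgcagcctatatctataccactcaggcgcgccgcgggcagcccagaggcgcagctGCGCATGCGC
Mrps18a: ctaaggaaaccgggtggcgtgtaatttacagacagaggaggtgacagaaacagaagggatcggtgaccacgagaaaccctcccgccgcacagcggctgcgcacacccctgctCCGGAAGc
Mrpl16: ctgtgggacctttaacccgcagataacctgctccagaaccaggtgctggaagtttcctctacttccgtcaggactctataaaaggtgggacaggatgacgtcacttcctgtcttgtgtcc

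To see whether paternal DCHP exposure was accompanied by altered hepatic expression of the mitochondrial ribosome, the 78 genes were compared between the groups. No gene passed both thresholds in either direction, against 1.28% of genes tested. The fitted changes were small and nearly all had the same sign, with a log2 fold change below 0 for 74 of 78 genes (94.9%), against 48.5% of genes tested. The median log2 fold change of the list was -0.144, a level 9.49% lower in the paternal DCHP group, and that of all genes tested was 0.009. Without DCHP 3 and DCHP 5, 57 genes were below 0 and the median was -0.053. Single values lay between -0.474 for Mrps16, 28% lower, and 0.111 for Mrpl16.

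At an unadjusted p under 0.05 (edgeR), 17 of 78 genes (21.8%) were lower, against 8.34% of genes tested, and 0 were higher, against 10.6%. Without DCHP 3 and DCHP 5, only 4 genes were lower by this rule, against 6.44% of genes tested in that fit. Of genes tested, 3.84% stood under an FDR of 0.1 without the fold threshold in either direction, and 1.56% did so and were lower. Among the 78 genes these were 2, Mrps16 and Mrps35, both lower. Neither reached the fold threshold, which is 0.585 on the log2 scale. In 23 genes all 6 paternal DCHP livers were below the median of the controls, in 21 genes 5 livers and in 18 genes 4 livers. This was not counted over all genes tested, so no share stands beside it. No gene had groups that did not overlap, against 1.24% of genes tested that were lower without overlap. The plot of fold changes ordered by size shows genes of both subunits interleaved and no point beyond the fold threshold.

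**Figure D1:**
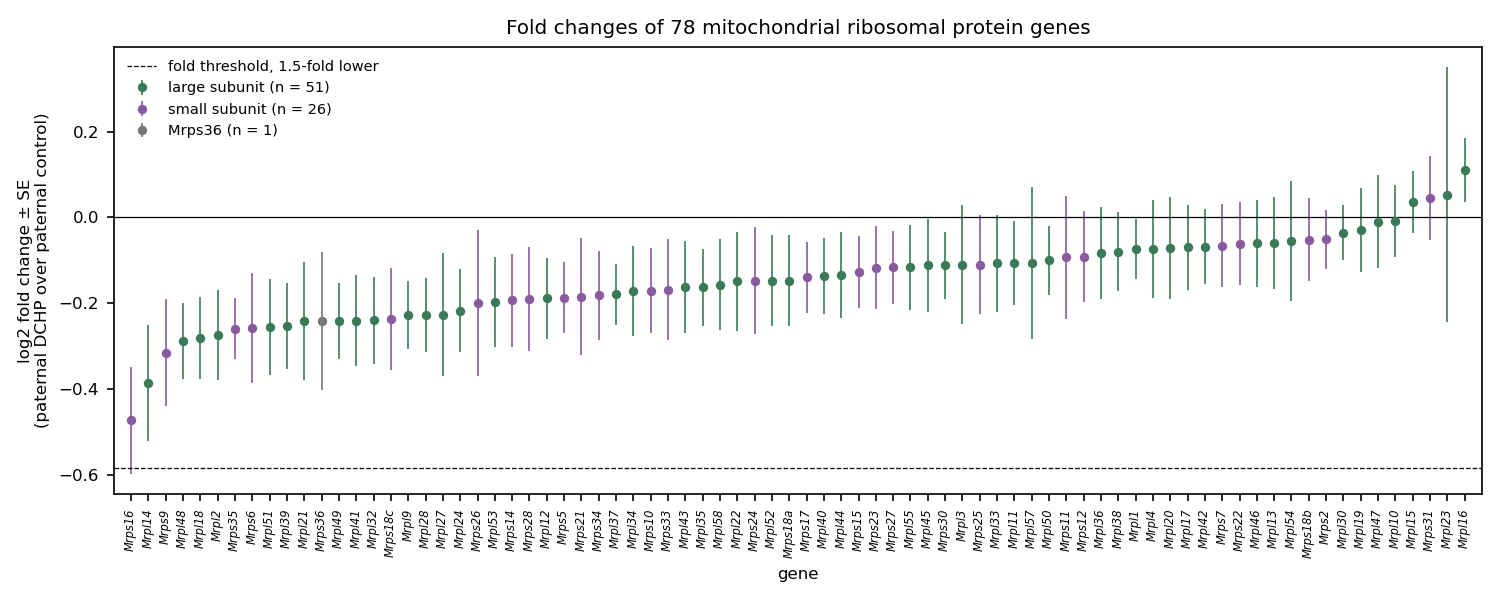
log2 fold change (paternal DCHP over paternal control) of each of the 78 genes, ordered by size and coloured by subunit, with bars for the standard error and a dashed line at 1.5-fold lower. 74 of the points lie below 0, and they extend from -0.474 (Mrps16) to 0.111 (Mrpl16).

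Small-subunit genes included both genes with an FDR under 0.1. Mrps16 (chromosome 14, 20389304 to 20393634, minus strand, mm10) encodes a protein of the bacterial S16 family, and its loss impairs mitochondrial translation in humans. Its lowest, median and highest levels were 6.83, 7.73 and 10 CPM in paternal DCHP livers and 8.12, 11.3 and 12.9 CPM in paternal control livers. The groups overlapped only through control 1, and 4 of 6 paternal DCHP livers were below all controls. The log2 fold change was -0.47 ± 0.13 (SE, edgeR adjusted p = 0.0816).

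Mrps35 (chromosome 6, 147042764 to 147073991, plus strand) encodes a small-subunit protein without bacterial counterpart. It lay between 16.6 and 20.5 CPM in paternal DCHP livers, with a median of 18.6, and between 19.7 and 23.1 CPM in paternal control livers, with a median of 22.6. Only DCHP 5 exceeded a control liver, control 3. The log2 fold change was -0.26 ± 0.07 (SE, edgeR adjusted p = 0.0874). Over 26 alternative treatments of the data the adjusted p lay between 0.0173 and 0.206 for Mrps16 and between 0.0293 and 0.199 for Mrps35, and it was at or over 0.1 in 13 of them for Mrps16 and in 15 for Mrps35.

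The remaining small-subunit genes named for their roles did not pass the test. Mrps12, the counterpart of the bacterial S12 protein at the decoding centre, had a median of 29.2 CPM in paternal DCHP livers and 28.6 CPM in paternal control livers, with ranges of 21.4 to 31.7 and 27.0 to 33.4. Its log2 fold change of -0.09 ± 0.11 (SE, adjusted p = 0.665) had DCHP 3 and DCHP 5 as the only livers below all controls, and it turned to 0.02 when the trend on main transcript length was removed and to 0.05 without both livers. The 6 genes of the decoding site and the messenger RNA path were all below 0, with a median of -0.092.

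Mammals have 3 Mrps18 genes, whose products occupy different places: that of Mrps18c takes the site of bacterial S18 in the small subunit, that of Mrps18b another site of the small subunit, and that of Mrps18a a site in the large one. Mrps18c lay between 11.5 and 17.8 CPM (median 14.8) in paternal DCHP livers and between 14.3 and 21.2 CPM (median 17.6) in paternal control livers, a log2 fold change of -0.24 ± 0.12 (SE, adjusted p = 0.298). Mrps18a had medians of 24.6 and 26.6 CPM and a log2 fold change of -0.15 ± 0.11 (SE, adjusted p = 0.467). For Mrps18b the medians were 30.2 and 30.4 CPM, and the log2 fold change of -0.05 ± 0.10 (SE, adjusted p = 0.80) turned positive without DCHP 5 and with the length trend removed. In all 3 genes DCHP 5 was the lowest liver.

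Among large-subunit genes, 13 of 51 (25.5%) were lower at an unadjusted p under 0.05, against 8.34% of genes tested. The central protuberance, the crown of the large subunit, was represented by 6 genes, all below 0 with a median of -0.182. Of these 6, 2 were lower at an unadjusted p under 0.05, against the same 8.34%. Mrpl48 (chromosome 7, 100545751 to 100608301, minus strand) encodes a protuberance protein special to mitochondria and had the third smallest p of the 78 genes. It lay between 16.7 and 20.7 CPM (median 18) in paternal DCHP livers and between 17.5 and 24.6 CPM (median 22.7) in paternal control livers. The overlap came from control 1, since the other 5 controls exceeded every paternal DCHP liver. The log2 fold change was -0.29 ± 0.09 (SE, edgeR adjusted p = 0.112). Mrpl48 shares 708 exonic bases with Rab6a on the other strand, and the strand setting of the counting is not known. It also has an annotated pseudogene copy.

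Mrpl18 encodes the protuberance protein that in bacteria binds the 5S ribosomal RNA, in whose place mammalian mitochondria carry a transfer RNA. It lay between 26.7 and 38.6 CPM (median 35.3) in paternal DCHP livers and between 34.5 and 45.4 CPM (median 41.8) in paternal control livers, a log2 fold change of -0.28 ± 0.10 (SE, adjusted p = 0.146). Mrpl14 encodes the L14 homolog at the interface of the subunits, where the assembly factor Malsu1 binds. Its range was 22.8 to 38.9 CPM (median 34.2) in paternal DCHP livers and 29.7 to 47.9 CPM (median 44.6) in paternal control livers, where control 1 stood alone at the low end. The log2 fold change was -0.39 ± 0.13 (SE, adjusted p = 0.149).

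Mrpl9, whose promoter is printed above, lay between 31.9 and 43.4 CPM (median 38.2) in paternal DCHP livers and between 41.4 and 48.9 CPM (median 45.0) in paternal control livers. DCHP 2 and DCHP 6 were within the control range and the other 4 livers were below it, with a log2 fold change of -0.23 ± 0.08 (SE, adjusted p = 0.149). Mrpl14, Mrpl18 and Mrpl9 each overlap a gene of the other strand by 106 to 157 exonic bases. The points per liver show control 1 within the paternal DCHP range in Mrps16, Mrpl48, Mrpl18, Mrpl14 and Mrpl9.

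**Figure D2:**
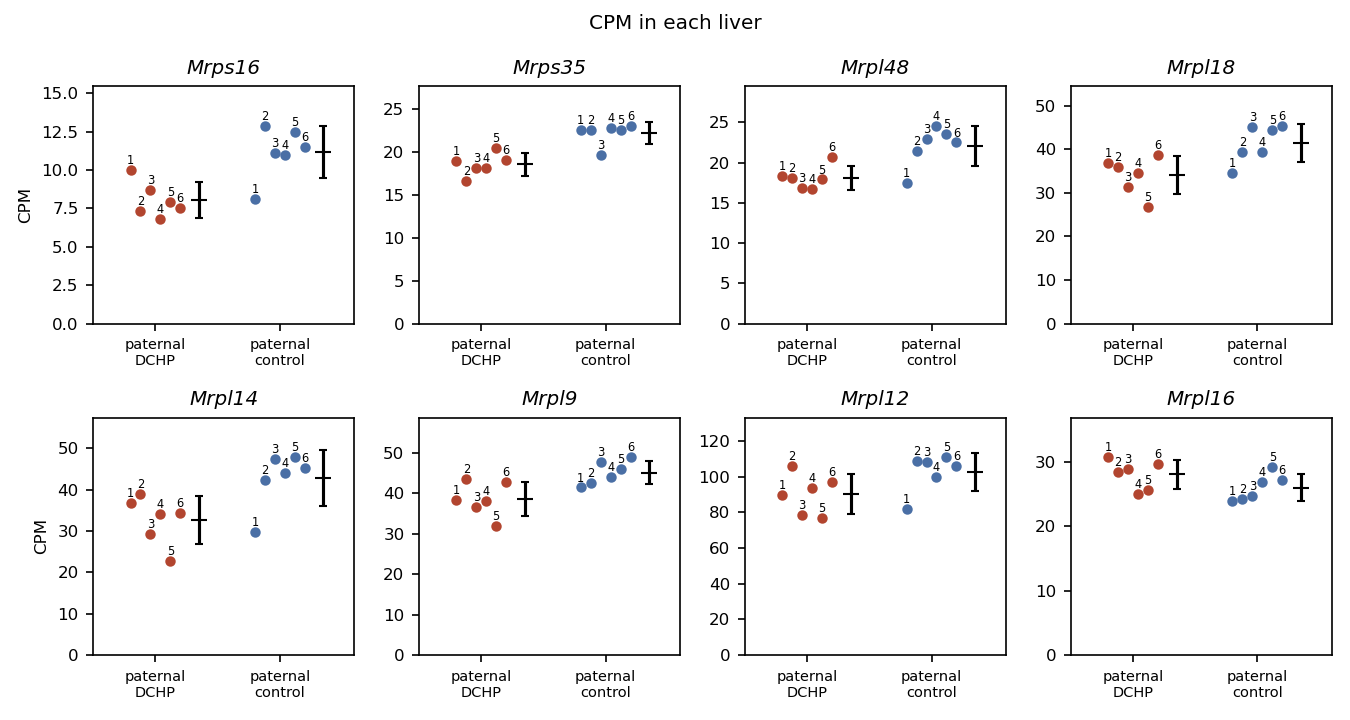
TMM-scaled CPM of named mitochondrial ribosomal protein genes in each liver, paternal DCHP left and paternal control right (n = 6 each). Numbers are the replicates, and the crossbars show the mean ± SD. In Mrps16 and Mrps35 the paternal DCHP medians are 7.73 and 18.6 CPM, against 11.3 and 22.6 CPM in paternal control livers.

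The stalk of the large subunit recruits translation factors and is built from Mrpl10, Mrpl11 and Mrpl12, all below 0 with a median of -0.106 and none with an unadjusted p under 0.05. Mrpl12, the L7/L12 homolog, was the most abundant of the 78 genes per length, at 73.3 CPM per kilobase of its main transcript. It lay between 76.7 and 106 CPM (median 91.6) in paternal DCHP livers and between 82.1 and 111 CPM (median 107) in paternal control livers, a log2 fold change of -0.19 ± 0.10 (SE, adjusted p = 0.298). At the exit of the peptide tunnel, 4 of 5 genes were below 0, with a median of -0.134. Mrpl45, which ties the ribosome to the inner membrane, had a median of 26.1 CPM in paternal DCHP livers and 28.4 CPM in paternal control livers, and its log2 fold change was -0.11 ± 0.11 (SE, adjusted p = 0.60).

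Only 4 genes had a positive log2 fold change, and none passed the test. Mrpl16, whose product lies near the site where transfer RNA enters, had medians of 28.7 CPM in paternal DCHP livers and 25.9 CPM in paternal control livers, with overlapping ranges of 25.1 to 30.8 and 23.9 to 29.2. Its log2 fold change was 0.11 ± 0.07 (SE, adjusted p = 0.44), and it was positive in all 26 alternatives. Mrpl23, Mrps31 and Mrpl15 had values of 0.05 ± 0.30, 0.05 ± 0.10 and 0.04 ± 0.07 (SE), and each changed sign in at least 1 alternative. Mrpl23, a tunnel exit gene, was the weakest of the list at 1.27 to 3.26 CPM in paternal DCHP livers and 0.989 to 2.77 CPM in paternal control livers, and it has an annotated pseudogene copy whose reads could be mixed with its own.

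Although the proteins are built into 1 complex in fixed numbers, their mRNA levels differed widely. Mean levels over the 12 livers lay between 1.97 and 96.5 CPM, with a median of 22.7. Per kilobase of main transcript, Mrpl12 was followed by Mrpl52 at 64.7 and Mrpl14 at 58.5 CPM, while Mrps26 and Mrpl3 were the lowest at 1.53 and 1.88 CPM, followed by Mrpl19 and Mrps25, tied at 2.44 CPM. By the summed length of all annotated exons instead, Mrpl34 (54.3 CPM per kilobase) replaced Mrpl52 among the highest and Mrpl23 (0.403) replaced Mrpl19 among the lowest.

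None of these genes was called. Mrpl52 had medians of 26.8 CPM in paternal DCHP livers and 29.2 CPM in paternal control livers, a log2 fold change of -0.15 ± 0.11 (SE, adjusted p = 0.465). Those of Mrpl3 and Mrps26 were -0.11 ± 0.14 and -0.20 ± 0.17 (SE). For Mrpl19 it was -0.03 ± 0.10 (SE) and turned positive when DCHP 2, control 2 or control 3 was left out. Mrps36, the gene outside the ribosome, lay between 5.67 and 11.3 CPM (median 7.32) in paternal DCHP livers and between 6.92 and 10.5 CPM (median 9.84) in paternal control livers, a log2 fold change of -0.24 ± 0.16 (SE, adjusted p = 0.431). It has 3 annotated pseudogene copies.

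The difference between groups was of similar size in both subunits, with no test of one against the other. The median log2 fold change was -0.134 over the 51 large-subunit genes, of which 48 were below 0, and -0.158 over the 26 small-subunit genes, of which 25 were below 0. Of the small-subunit genes, 4 (15.4%) were lower at an unadjusted p under 0.05, against 8.34% of genes tested. The ratio of summed large-subunit to summed small-subunit CPM was 2.31 ± 0.04 in paternal DCHP livers and 2.33 ± 0.03 in paternal control livers (SD, n = 6 each), with overlapping ranges of 2.25 to 2.35 and 2.28 to 2.38. Genes listed with and without a bacterial counterpart had medians of -0.144 and -0.142, with 41 of 44 and 33 of 34 genes below 0. Among genes with a promoter sequence, the 25 with at least 1 of the searched strings were all below 0 with a median of -0.157, and of the 44 with none, 41 were below 0 with a median of -0.135.

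Summed over the 78 genes, the level was 1790 ± 186 CPM in paternal DCHP livers and 1990 ± 107 CPM in paternal control livers (SD, n = 6 each). The groups overlapped: 4 paternal DCHP livers lay between 1870 and 1940 CPM and were within the control range of 1840 to 2100 CPM. DCHP 5 (1480 CPM) and DCHP 3 (1650 CPM) were below every control. DCHP 5 was the lowest of the 12 livers in 55 of the 78 genes, and control 5 was the highest in 25. In 58 genes DCHP 5, and in 50 genes DCHP 3, was below all 6 controls, whereas in each of the other 4 paternal DCHP livers this held for 7 to 17 genes. In bulk liver RNA, less RNA per cell and fewer cells of a type cannot be told apart.

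**Figure D3:**
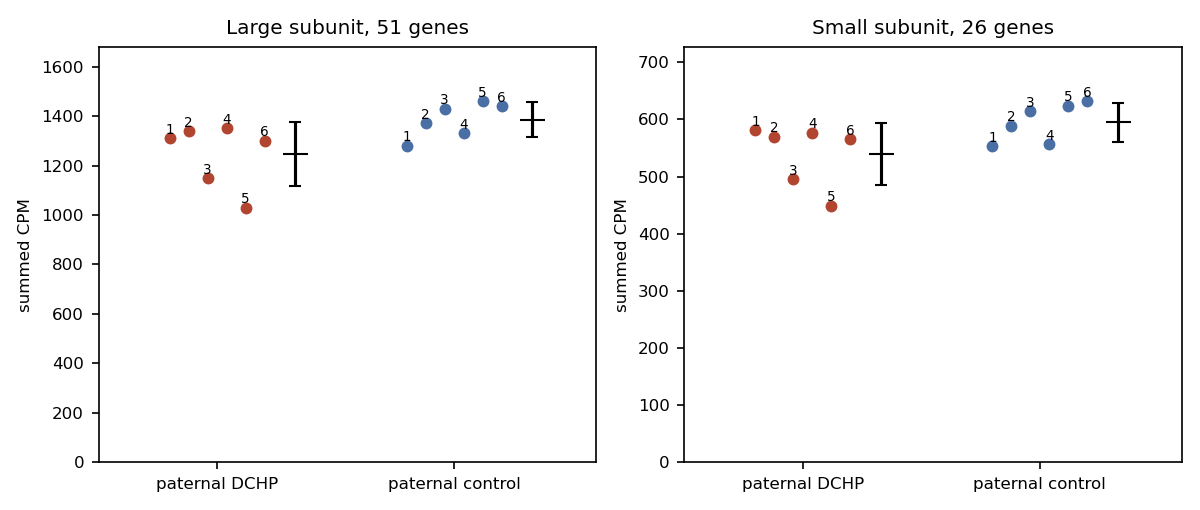
Summed TMM-scaled CPM per liver of the large-subunit (left panel) and small-subunit genes (right panel), paternal DCHP left of paternal control (n = 6 each), with replicate numbers and crossbars for the mean ± SD. DCHP 5 (1030 CPM large, 449 CPM small) and DCHP 3 (1150 and 496 CPM) lie below all controls, which start at 1280 and 553 CPM, and the other 4 paternal DCHP livers lie within the control range.

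Without DCHP 5, 67 of 78 genes were below 0, the median log2 fold change was -0.088, and 13 genes were lower at an unadjusted p under 0.05, against 7.05% of genes tested in that fit. Without DCHP 3 the same counts were 72 and 11, that of 11 against 7.61% of genes tested, and the median was -0.12. Without both livers, an alternative chosen after the data were seen because they were lowest in these genes, 57 genes were below 0, the median was -0.053 against 0.009 for all genes, and 4 genes were lower at an unadjusted p under 0.05, against 6.44% of genes tested in that fit. Leaving out the lowest livers of a group narrows its difference by construction. Genes of the list also varied together from liver to liver. The median Pearson correlation over the 3003 pairs of genes was 0.543 across 12 livers, with 87.6% of pairs positive, and 0.339 across the 11 livers without DCHP 5, with 83.6% positive. These correlations share libraries, and part of them is the difference between the groups.

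Transcript length moved with this result. Mitochondrial ribosomal protein genes are short, with a median main transcript of 1302 bases against 3026 bases over all genes tested. Over 12372 genes with a known length, log2 fold changes correlated with length, with a Spearman coefficient of 0.361 (0.261 without DCHP 5), so that short genes tended to be lower in the paternal DCHP group. Among the 78 genes themselves the coefficient was 0.0583. These coefficients are across genes, which are not independent replicates.

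Livers that were low in the 78 genes were those in which long genes stood high. For each library, the log2 CPM of a gene, centred on its mean over the 12 livers, was correlated with its length. This used tested genes with a known length and a mean log2 CPM above 0. The coefficient was 0.527 in DCHP 5 and 0.385 in DCHP 3, where the mean centred log2 CPM of the 78 genes was -0.356 and -0.179. In control 5, control 6 and control 3 it was -0.354, -0.368 and -0.323, where that mean was 0.159, 0.128 and 0.125. The other 7 livers had coefficients between -0.0959 and 0.0704 and means between -0.037 and 0.068.

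**Figure D4:**
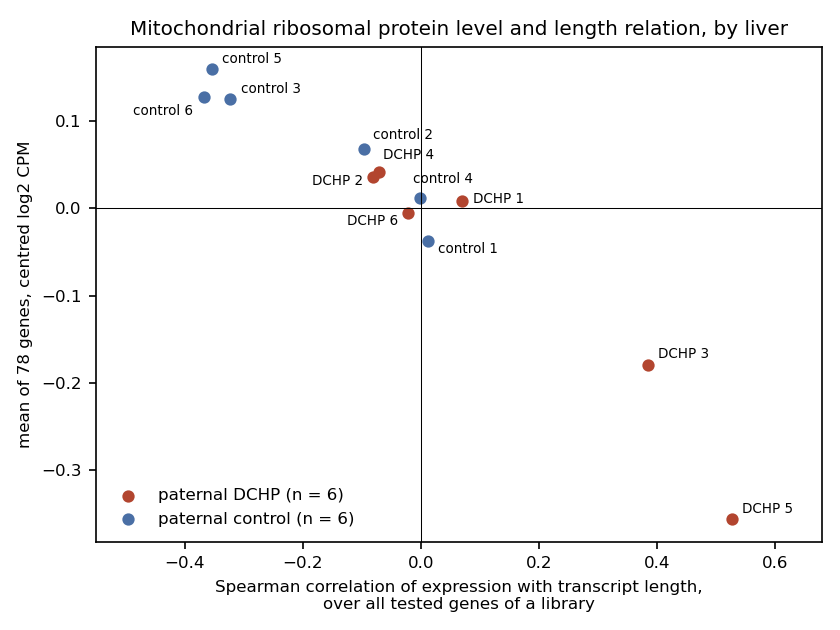
Mean centred log2 CPM of the 78 genes in each liver (vertical axis) against the Spearman correlation of centred log2 CPM with transcript length over all tested genes of that library (horizontal axis), paternal DCHP and paternal control livers in separate colours. DCHP 5 and DCHP 3 lie at the lower right, and control 3, control 5 and control 6 at the upper left.

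When the trend on exonic length and GC content was removed from each library, 70 of 78 genes were below 0 (69 of the 74 that were below 0 before), with a median of -0.103 against -0.014 for all genes, and 17 were lower at an unadjusted p under 0.05, against 9.77% of genes tested in that fit. Under an FDR of 0.1 without the fold threshold stood 2 of the 78 genes in that fit, against 2.52% of genes tested. They were Mrps35 and Mrpl48, with adjusted p-values of 0.034 and 0.0673, and that of Mrps16 was 0.112 (edgeR). With the length of the main transcript in place of the summed exons, an alternative chosen after the data were seen, 61 genes were below 0, against 52.5% of genes tested in that fit, and the median was -0.087 against -0.011 for all genes. In that fit 16 genes were lower at an unadjusted p under 0.05, against 9.58% of genes tested, and 1 was higher. With DCHP 5 left out and the trend removed, also chosen after the data were seen, 64 genes were below 0, against 53.2% of genes tested, with a median of -0.085 against -0.015 for all genes. No mitochondrial ribosomal protein gene was called in any of the 3 fits.

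**Figure D5:**
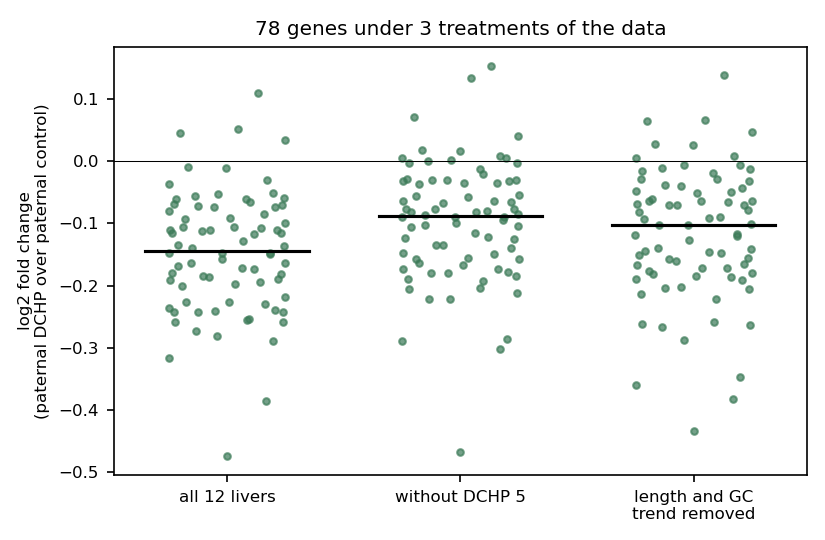
log2 fold changes (paternal DCHP over paternal control) of the 78 genes in the fit of all 12 livers, without DCHP 5, and with the length and GC trend of each library removed. Horizontal lines mark the medians of -0.144, -0.088 and -0.103.

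Of the 12 livers, DCHP 5 was also highest in the share of mitochondrially encoded counts and in the summed Kupffer cell and erythroid markers. Counts of mitochondrially encoded genes were 8.03% of its total, against 5.22 to 5.86% in the other paternal DCHP livers and 5.61 to 6.98% in paternal control livers. The summed level of 10 Kupffer cell markers was 655 CPM in DCHP 5, 211 to 429 CPM in the other paternal DCHP livers and 182 to 293 CPM in paternal control livers. All 10 markers were detected, and 0 of 10 had a log2 fold change below 0. Neutrophil marker genes summed to 2.4 to 6.82 CPM in paternal DCHP livers, highest in DCHP 4, and 0.988 to 2.19 CPM in paternal control livers. Of these 5 genes, 2 had enough counts to be tested and 1 was called, and Ly6g was at 0 in every library. Mean sums of lymphocyte (1.71 and 2.4 CPM) and cholangiocyte markers (33.7 and 35 CPM) were lower in the paternal DCHP group. Those of endothelial (168 and 155 CPM) and stellate markers (192 and 178 CPM) were higher, all with overlapping ranges. Erythroid markers summed to 387 CPM in DCHP 5, 145 to 220 CPM in the other paternal DCHP livers and 151 to 231 CPM in paternal control livers. In DCHP 3, the other low liver, the mitochondrially encoded share was 5.83%, Kupffer cell markers summed to 324 CPM and erythroid markers to 145 CPM. Immediate-early genes, which respond to handling and stress, summed to 2300 CPM in DCHP 1 and 292 to 642 CPM in the other paternal DCHP livers, against 235 to 455 CPM in paternal control livers. Of these 12 genes, 5 were called, against 1.28% of genes tested. The part of these cells and of the stress response in the result was not tested. DCHP 1 and DCHP 4 had the most immediate-early RNA. Without them, 76 of 78 genes were below 0 with a median of -0.194, against 48.9% and 0.007 for all genes tested in that fit. Their summed levels of the 78 genes, 1900 and 1940 CPM, were above the group mean of 1790 CPM. Leaving them out thus widens the difference by construction and does not test the part of the stress response.

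The wider machinery of mitochondrial translation was examined in lists of other genes, none of which held a called gene. Of 5 tested ribosomal proteins with names outside the Mrp series, 4 were below 0, against 48.5% of genes tested, with a median of -0.223. The median was -0.135 without DCHP 5 and -0.08 without DCHP 3 and DCHP 5. In the fit of all livers 2 were lower at an unadjusted p under 0.05, against 8.34% of genes tested. Aurkaip1, a small-subunit protein, lay between 35.5 and 47.8 CPM (median 43.3) in paternal DCHP livers and between 44.2 and 53.5 CPM (median 50.5) in paternal control livers. Its log2 fold change was -0.25 ± 0.08 (SE, edgeR adjusted p = 0.139), and DCHP 2 alone lay within the control range.

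Of 24 assembly factors, 19 were below 0 (79.2%), against 48.5% of genes tested, with a median of -0.155. At an unadjusted p under 0.05, 7 were lower (29.2%) and 1 higher, against 8.34% and 10.6% of genes tested. Without DCHP 5, 4 were lower, against 7.05% of genes tested in that fit. Without DCHP 3 and DCHP 5, 2 of 24 were lower, against 6.44% of genes tested. Mettl17, which acts on the small subunit during assembly, lay between 2.71 and 5.82 CPM (median 5.18) in paternal DCHP livers and between 5.96 and 8.23 CPM (median 6.48) in paternal control livers. The groups did not overlap, which held for 1 of the 24 factors, against 1.24% of genes tested that were lower without overlap. The log2 fold change of Mettl17 was -0.50 ± 0.17 (SE, edgeR adjusted p = 0.142).

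Translation factors and related proteins were divided, with 8 of 15 below 0 and a median of -0.023. Without DCHP 3 and DCHP 5, 7 of 15 were below 0 and the median was 0.004. Mtfmt, which formylates the initiator methionyl-tRNA, had medians of 4.52 CPM in paternal DCHP livers and 6.0 CPM in paternal control livers, a log2 fold change of -0.42 ± 0.13 (SE, edgeR adjusted p = 0.111). Of 17 mitochondrial aminoacyl-tRNA synthetases, 16 were below 0, against 48.5% of genes tested, with a median of -0.096 (-0.045 without DCHP 5). Without DCHP 3 and DCHP 5, 13 of 17 were below 0 with a median of -0.044, and 0 were lower at an unadjusted p under 0.05. In the fit of all livers 1 was lower by this rule (5.88%), against 8.34% of genes tested. That gene was Aars2, the alanyl-tRNA synthetase, with medians of 17.1 CPM in paternal DCHP livers and 18.3 CPM in paternal control livers, a log2 fold change of -0.18 ± 0.08 (SE, edgeR adjusted p = 0.252).

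Of 14 tested genes for transcription of mitochondrial DNA and its control, 8 were below 0 with a median of -0.024 (-0.073 without DCHP 3). Without DCHP 3 and DCHP 5, 11 were below 0 with a median of -0.07. In the fit of all livers 2 were lower and 1 higher at an unadjusted p under 0.05, against 8.34% and 10.6% of genes tested. The higher gene was Ppargc1a, a coactivator of mitochondrial gene programmes, at 0.67 ± 0.30 (SE, edgeR adjusted p = 0.244), and the lower ones were Tfam and Esrra, an orphan nuclear receptor, the second at -0.22 ± 0.10 (SE, adjusted p = 0.243). Of the 14 genes 1 was lower without overlap between groups, against 1.24% of genes tested. This was Tfam, which packages mitochondrial DNA and starts its transcription. It lay between 32.7 and 39.6 CPM (median 36.8) in paternal DCHP livers and between 41.3 and 45.0 CPM (median 43.2) in paternal control livers. Its log2 fold change was -0.25 ± 0.07 (SE, edgeR adjusted p = 0.0877), under an FDR of 0.1 and short of the fold threshold. In 16 of 26 alternatives the adjusted p was at or over 0.1. The genes of the factors whose letters were searched in the promoters, picked for that reason after their values were seen as were Ppargc1a and Esrra, had log2 fold changes near 0, at 0.07 ± 0.13 for Nrf1, 0.02 ± 0.09 for Gabpa and 0.01 ± 0.08 for Yy1 (SE).

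The mRNAs of the 13 proteins that this ribosome makes, encoded by mitochondrial DNA, had a median log2 fold change of 0.038, with 4 below 0 and 9 above. At an unadjusted p under 0.05, 0 were lower and 1 higher, against 8.34% and 10.6% of genes tested. The direction depended on the fit. Without DCHP 5, 10 of 13 were below 0, the median was -0.069, and 1 was lower and 0 higher at an unadjusted p under 0.05. Without DCHP 3 and DCHP 5, 10 of 13 were below 0 with a median of -0.055. Without DCHP 3 alone, 2 of 13 were below 0 with a median of 0.079. With the length and GC trend removed, 0 of 13 were below 0, the median was 0.163, and 1 was higher at an unadjusted p under 0.05. The higher gene in the fit of all livers was mt-Nd5, a subunit of complex I, between 2950 and 5690 CPM (median 4120) in paternal DCHP livers and between 2850 and 3890 CPM (median 3390) in paternal control livers, a log2 fold change of 0.29 ± 0.13 (SE, edgeR adjusted p = 0.254), and 0.18 without DCHP 5. DCHP 5, the liver with the lowest summed level of the 78 genes, had the highest mt-Nd5 level of the 12.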

How the data were processed

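Liver RNA of 12 F1 males was sequenced, and the authors deposited the estimated counts of each gene symbol in 1 table, not normalized. Per the labels, reads were processed against mm10. The sources used here give no aligner, counter, annotation, strand setting or treatment of reads matching several genes, so genes with overlapping exons (28 of the 78 with a gene on the other strand, 6 with one on the same strand) or pseudogene copies (3) are uncertain. Libraries were assigned to groups by their titles.

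Estimated counts were rounded to whole numbers. Genes were filtered with filterByExpr (minimum count 10) and compared with the edgeR quasi-likelihood test (edgeR 4.0.16, R 4.3.3) with TMM factors, all 12 libraries and no covariate, with Benjamini-Hochberg adjustment over all 12459 genes. Thresholds were those of the study (FDR under 0.1, fold change above 1.5). The test was checked on simulated data with larger changes than those of the mitochondrial ribosomal protein genes. That check does not cover changes of their size. Standard errors were derived from the log2 fold change and its F statistic. Centred levels are log2 CPM with a prior count of 2. Positions and lengths come from GENCODE M21 of the same build, and levels per length use the main transcript, in place of the summed exons planned, since retained introns lengthen the latter. Promoters come from RefSeq. The lowest chi-square per degree of freedom over 30 pairs of libraries within groups was 17.4, so no library was a duplicate.

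Named are any called gene, in either direction the 6 of smallest p (only 4 genes were higher), the 3 highest and 3 lowest levels per kilobase, the Mrps18 genes, Mrpl12, Mrpl45, Mrps12 and Mrps36, and the gene with the smallest p of each other list. Members, lists, tests and alternatives were chosen with earlier results of these data known. Alternatives were other scaling factors (RLE, upper quartile, without mt- genes), filters and thresholds, DESeq2 (1.42.0), limma-voom (limma 3.58.1), the replicate number as a block, removal of length and GC trends (natural splines, 4 degrees of freedom each) and omission of libraries.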

Additional observations from a re-analysis of the deposited data

Results flagged for a closer look

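Of 72 groups of 6 values checked, 9 held a liver whose gap to the nearest of the other 5 relative to the group's range exceeded Dixon's critical value, which chance passes in about 1 in 20 groups. In the paternal DCHP group, DCHP 5 stood apart in the share of mitochondrially encoded counts (8.03%, others 5.22 to 5.86%), in the summed erythroid markers (387 CPM, others 145 to 220) and in Mettl17 (2.71 CPM, others 4.69 to 5.82). DCHP 2 stood apart in Mrpl19 (9.86 CPM, others 11.9 to 13) and in Mtfmt (5.64 CPM, others 4.19 to 4.62), and DCHP 1 in the summed immediate-early genes (2300 CPM, others 292 to 642). In the paternal control group, control 3 stood apart in Mrps35 (19.7 CPM, others 22.6 to 23.1) and in Mtfmt (8.1 CPM, others 5.27 to 6.06), and control 1 in Mrpl14 (29.7 CPM, others 42.3 to 47.9).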

How the results depend on the processing

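No mitochondrial ribosomal protein gene was called in the fit of all livers or in any alternative run, and the median of the 78 genes stayed below 0. With 1 library left out at a time, between 67 and 75 of the 78 genes were below 0, the median lay between -0.176 and -0.088, and between 11 and 22 genes were lower at an unadjusted p under 0.05, with 11 when DCHP 3 was left out. The last count was 10 without DCHP 5 and control 1 and 4 without DCHP 3 and DCHP 5, alternatives chosen after the data were seen. The number of genes called over the whole table, 159, was 326 with DESeq2, 103 with the length and GC trend removed, 62 without DCHP 5 and control 1, 63 without DCHP 5 and with the trend removed, and 65 at an FDR under 0.05 with no fold threshold. With 1 library left out it lay between 7 (without control 3) and 233 (without DCHP 6), with 33 without control 4 or control 6, 38 without control 5, 69 without DCHP 4, 77 without DCHP 5 and 105 without control 1. The labels do not say whether equal replicate numbers pair livers. The correlation of same-numbered livers' deviations from the group means lay between -0.119 and 0.174. Without the values of differently numbered pairs, this cannot decide whether they are paired. With the replicate block, 59 genes were called over the whole table and 11 of the 78 genes were lower at an unadjusted p under 0.05. DESeq2 placed 6 of the 78 genes, and 9.07% of all genes tested, under an FDR of 0.1 without the fold threshold. The cause of these differences was not tested. With 6 livers a group, the standard errors of the 78 genes had a median of 0.102 on the log2 scale.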
